A study of Mus musculus with 8 samples.

Results

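Replication timing was read for Klf4 and 7 genes on both sides of it on mouse chromosome 4, in embryonic stem cells with and without an enhancer of Klf4. The genes were listed by name: Tal2, Zfp462 and Rad23b at lower coordinates than Klf4, and Actl7b, Actl7a, Ctnnal1 and Tmem245 at higher coordinates. All 8 had scores, out of 1301 measured protein-coding genes of the chromosome. The cells were JM8N4, a mouse embryonic stem cell line, as control, and cells labelled as carrying a deletion of a Klf4 enhancer. The labels name no further allele or agent, no clone number and no coordinates for the deletion, and they do not say that the deletion cells were made from JM8N4. Each of the 4 profiles (control 1 and 2, deletion 1 and 2) joins an early and a late S-phase library, so the 8 libraries give 2 profiles per genotype. Nothing states that these came from separate cultures, so every spread and p-value below covers the spread between profiles, which may be technical.

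In Repli-seq, cells take up the base analog BrdU while they copy their DNA, are sorted into early and late S phase, and the labelled DNA of each fraction is sequenced. A timing score then compares the early with the late signal at each place. Chromosomes replicate as large domains, in which neighbouring genes share a time, and gene-rich and active stretches usually replicate early. Between an early and a late domain lies a transition, along which the score falls steadily. Klf4 encodes a zinc finger transcription factor of naive pluripotency that is expressed in embryonic stem cells under the control of distal enhancers. The comparison asked whether Klf4 and the genes around it replicate at another time when such an enhancer is lost.

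The deposited scores have no stated unit or log base and are given at steps of 5 kb. A higher score was read as earlier replication, because 81.1% of the measured genes but only 45.7% of the positions had a mean score above 0. The table holds no read counts, so the depth behind a score is unknown. The scores are smooth along the chromosome, so genes that lie side by side are not independent measurements. Over all 1301 genes the median difference, deletion minus control, was 0.14. Within replicate number 1 this median was 0.09, and within number 2 it was 0.18. Differences are therefore also given relative to that shift.

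Klf4 is read from the minus strand, so its start faces the higher coordinates and the long stretch without protein-coding genes that ends at Actl7b. Actl7b and Actl7a, intronless genes for actin-like proteins of male germ cells, are read away from each other and lie 2.00 kb apart at the far side of that stretch. The 250 bases before the start of these 3 genes are shown because the genes bound the same stretch and had like timing in control cells while their promoters differ in CG letters. Each is written 5′ to 3′ on the gene's strand, from RefSeq on GRCm38.p6, with every CG in capitals.
Klf4: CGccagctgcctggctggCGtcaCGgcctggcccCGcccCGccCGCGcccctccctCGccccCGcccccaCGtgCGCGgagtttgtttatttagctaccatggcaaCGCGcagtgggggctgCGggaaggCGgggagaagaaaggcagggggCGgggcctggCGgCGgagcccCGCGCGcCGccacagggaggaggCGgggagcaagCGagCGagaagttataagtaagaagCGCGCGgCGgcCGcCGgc
Actl7b: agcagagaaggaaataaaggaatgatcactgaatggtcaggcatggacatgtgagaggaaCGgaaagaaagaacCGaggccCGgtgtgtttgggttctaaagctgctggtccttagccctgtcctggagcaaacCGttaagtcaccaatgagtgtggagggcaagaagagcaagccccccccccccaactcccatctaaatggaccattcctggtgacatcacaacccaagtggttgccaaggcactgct
Actl7a: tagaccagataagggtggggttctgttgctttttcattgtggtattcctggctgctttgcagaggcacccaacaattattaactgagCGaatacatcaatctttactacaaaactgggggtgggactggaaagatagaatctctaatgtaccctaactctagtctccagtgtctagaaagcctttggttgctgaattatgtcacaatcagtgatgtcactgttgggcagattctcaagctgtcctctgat
These windows are chr4:55532476-55532725 on the minus strand for Klf4, chr4:56741426-56741675 on the minus strand for Actl7b and chr4:56743172-56743421 on the plus strand for Actl7a. The Klf4 window held 32 CG and 74.0% G and C. The Actl7b window held 4 CG and 52.4% G and C, and the Actl7a window 1 CG and 43.2%. CG reads the same on both strands, and 96.6% of the 1367 promoter windows of measured genes on the chromosome held at least 1, with a median of 11. As many CG as at Klf4 or more were found in 7.83% of them, as at Actl7b or more in 75.9%, and as at Actl7a or more in 96.6%. The other windows held 31 CG at Rad23b, 18 at Ctnnal1, 15 at Tmem245 and 11 at Tal2. Zfp462 had no entry in the promoter table.

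All 8 genes were early, with a score above 0 in every profile. Klf4 (chr4:55527137-55532475, covered by 2 bins) had scores of 2.24 in control 1, 2.73 in control 2, 1.77 in deletion 1 and 2.89 in deletion 2. The deletion profiles held both the lowest and the highest of these 4 values, so the genotypes overlapped. Among the measured genes, 55.6% were earlier than Klf4 in control 1, 43.4% in control 2, 67.8% in deletion 1 and 43.0% in deletion 2. Klf4 was therefore near the middle of the chromosome's genes in 3 profiles and later in deletion 1.

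On the lower side, Rad23b (chr4:55350042-55392237), which encodes a partner of the damage sensor of nucleotide excision repair, ends 135 kb from Klf4. The control profiles gave it 2.78 and 3.19, the deletion profiles 2.82 and 3.34. Zfp462 (chr4:54944491-55083563), a gene for a zinc finger protein, stood at 2.36 and 2.53 in the controls, and at 2.58 and 2.88 with the deletion. No other gene of the 8 had its deletion profiles both above its controls. Tal2 (chr4:53779701-53788712), which encodes a basic helix-loop-helix factor, ends 1738 kb from Klf4 and lies in another early domain. Control 1 and 2 gave it 0.96 and 1.41, and deletion 1 and 2 gave 1.22 and 2.16. Tal2 was the latest of the 8 genes in every profile.

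On the upper side, Actl7b (chr4:56740005-56741425) and Actl7a (chr4:56743422-56744925) fall in the same bin and cannot be told apart here. Their controls stood at 2.48 and 2.72 and their deletion profiles at 2.15 and 2.68. Ctnnal1 (chr4:56810935-56865375), a gene for a protein related to alpha-catenin, had control scores of 2.23 and 3.03 and deletion scores of 2.81 and 3.64. It had the highest score of any of the 8 genes in deletion 2, where only 6.84% of the measured genes were earlier. Tmem245 (chr4:56876003-56947455), which encodes a membrane protein, stayed between 2.79 in control 1 and 3.15 in deletion 2, with 3.01 in control 2 and 2.91 in deletion 1. In all of these genes the genotypes overlapped.

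**Figure D1:**
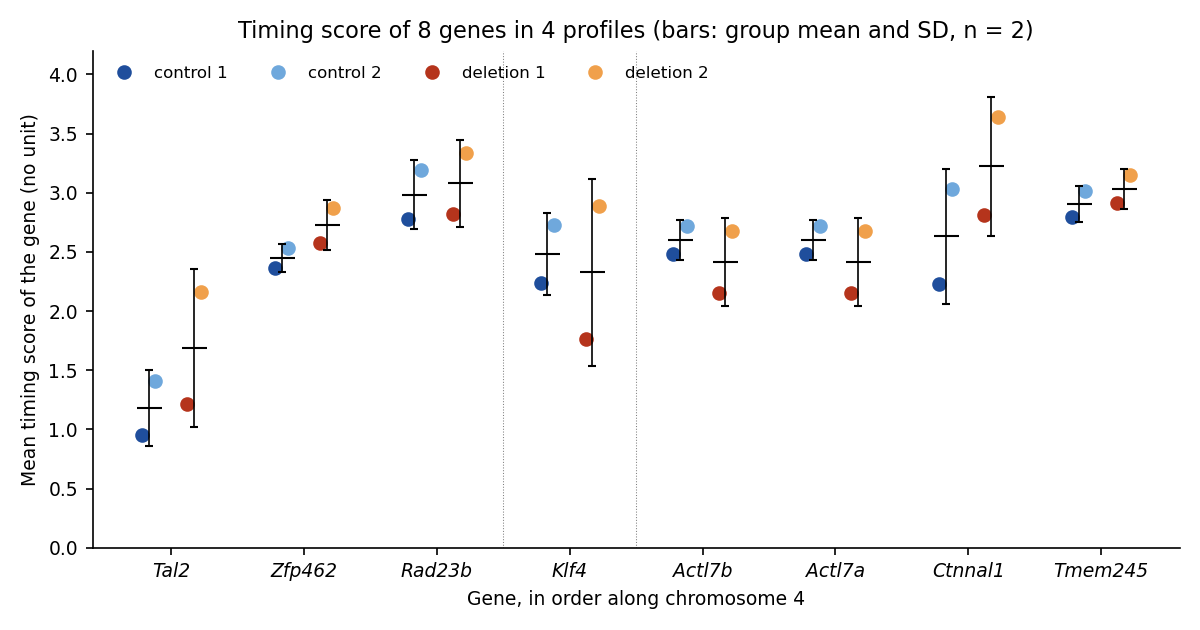
Vertical axis: mean timing score without a unit, where higher is earlier, for the 8 genes in order along chromosome 4, with 1 point per profile and black bars for group mean and SD (n = 2). Klf4 stands between the dotted lines with its deletion profiles at 1.77 and 2.89 on either side of both controls, and in Zfp462 alone the genotypes do not overlap.

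In order of the mean over the 4 profiles the genes ran Tal2, Klf4, Actl7a with Actl7b, Zfp462, Ctnnal1, Tmem245 and Rad23b. The step from Tal2 to Klf4 was 0.97 ± 0.39 (SD over 4 profiles) and had the same direction in all 4. The step from Zfp462 to Ctnnal1, at 0.34 ± 0.38, had the same direction in 3. Every other step between different bins was at most 0.10, smaller than its SD over the profiles, and held its direction in 2 of 4. These steps compare only neighbours in the order. Of the genes across the stretch, Tmem245 scored above Klf4 in all 4 profiles, Ctnnal1 in 3, and Actl7b and Actl7a in 2.

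The longer genes were not uniform. Zfp462 spans 139 kb and 29 bins, and its first bin was later than its last, at 1.91 against 2.85 in control 1 and 2.22 against 2.74 in control 2. In the deletion profiles these bins stood at 2.18 against 2.79 and at 2.63 against 2.94. The gradient ran the same way in all 4 profiles, towards the plateau that holds Rad23b. Tmem245 went from 2.45 to 3.04 in control 1 and the other way in deletion 2, from 3.45 to 2.99, while its range over bins was 0.05 and 0.09 in the other two. Klf4 itself had a range over its 2 bins of at most 0.10 in any profile, and Rad23b of at most 0.17.

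**Figure D2:**
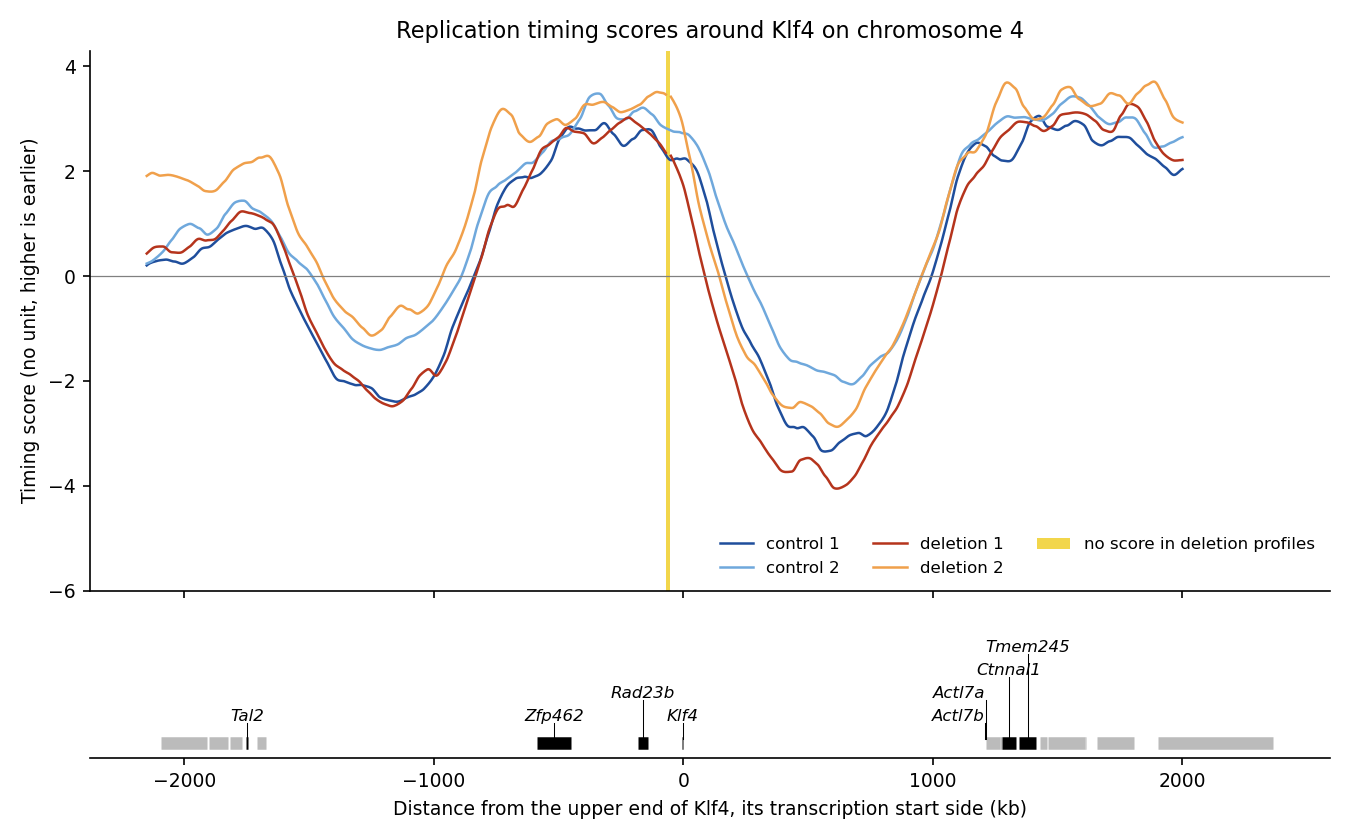
Timing scores (vertical axis, without a unit) of the 4 profiles against distance from the upper end of Klf4 in kb, with genes below (black, the 8 genes; grey, other protein-coding genes) and a yellow mark for positions without a score in deletion cells. Klf4 sits at the upper edge of an early domain, 168 and 258 kb from the first score below 0 in control 1 and 2 and 87.5 and 143 kb in deletion 1 and 2.

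No gene of the set passed the test between genotypes. The mean score of Klf4 was 2.48 ± 0.34 with the enhancer and 2.33 ± 0.79 without it (SD, n = 2 each), a difference of -0.16 (SE 0.37), or -0.29 relative to the median of all genes. The 95% interval of that difference ran from -0.92 to 0.60. Ctnnal1 had the largest difference, with means of 2.63 ± 0.57 for control and 3.23 ± 0.59 for deletion (SD, n = 2 each), or 0.59 (SE 0.37) with an interval from -0.16 to 1.35. Actl7b and Actl7a differed by -0.19 (SE 0.34), Rad23b by 0.09 (SE 0.35), Tmem245 by 0.13 (SE 0.34), Zfp462 by 0.28 (SE 0.34) and Tal2 by 0.51 (SE 0.36), where those of Rad23b and Tmem245 turned negative after quantile normalization. By limma the adjusted p was 0.999 for each of the 8 genes. Of all 1301 genes limma called 0 (0% of them), with 17 (1.31%) at an unadjusted p under 0.05, none of them among the 8. In some alternatives members reached that level without passing the adjusted test, up to 2 of the 8. The intervals are wide against these differences, so a p that misses the threshold does not show equal timing.

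The Klf4 difference depended on single profiles. Without deletion 1 it was 0.40 and without control 2 it was 0.09, while without deletion 2 it was -0.72 and without control 1 it was -0.40. It was also -0.27 after each profile was centred on its own median, -0.31 after quantile normalization and -0.25 when positions were read as bin ends. Without deletion 1 the difference of Actl7b and Actl7a turned to 0.08, and that of Ctnnal1 was 1.01. That of Ctnnal1 was 0.18 without deletion 2, 0.19 without control 1 and 0.996 without control 2. The Tal2 difference was 0.03 without deletion 2 and 0.98 without deletion 1, and that of Zfp462 was 0.13 and 0.43. Each of these comparisons leaves the replicate numbers uneven between genotypes.

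In both genotypes all 8 genes scored higher in the number 2 profile than in the number 1 profile. For Klf4 the number 2 profile was higher by 0.49 in control and by 1.12 in deletion cells. The median score of all positions was also higher in number 2, at -0.37 against -0.79 in control and -0.21 against -0.73 in deletion cells. What the numbers share was not tested, since the labels do not say. Genotypes were therefore also compared within each number.

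Within the numbers all 3 genes of the lower flank were higher in deletion cells as deposited, though the mean difference of Rad23b was -0.017 after median centring, while the upper flank was split, with 2 genes higher and 2 lower. Tal2 was higher in deletion cells by 0.26 in number 1 and 0.75 in number 2, Zfp462 by 0.22 and 0.35, and Rad23b by 0.04 and 0.15. Klf4 differed by -0.47 in number 1 and by 0.16 in number 2, and no other gene of the 8 changed sign between the numbers. Actl7b and Actl7a differed by -0.33 and -0.04. Ctnnal1 was higher by 0.58 and 0.61, the closest match between numbers relative to its size, and Tmem245 by 0.12 and 0.14.

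In all, 5 of the 8 genes were higher and 2 lower within both numbers, where 43.7% of the measured genes were higher and 14.4% lower. The genotypes were apart, with the deletion profiles higher, in 1 of the 8 (15.1% of all genes) and with them lower in 0 (6.53% of all genes). After median centring 3 of the 8 were higher and 4 lower within both numbers, against 30.2% and 25.5% of all genes. Rad23b then turned to -0.02 and -0.01 in number 1 and 2, and Tmem245 to 0.06 and -0.02. The signs of Tal2, Zfp462, Ctnnal1, Actl7b and Actl7a were kept within both numbers. The centred difference of Klf4 in number 2 was -0.00038, so its sign there depends on the centring.

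**Figure D3:**
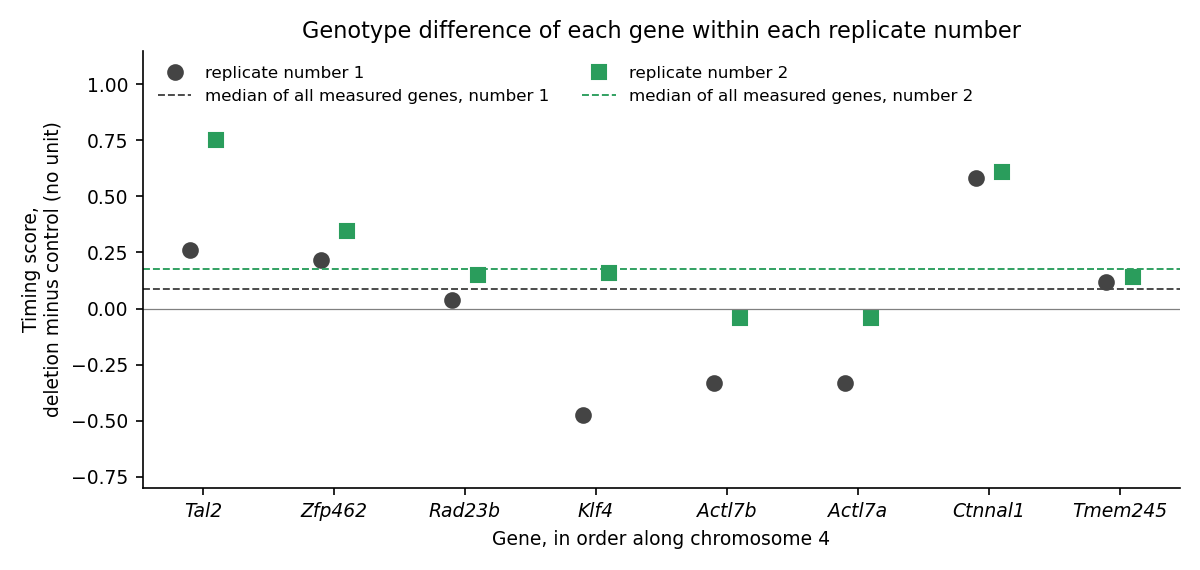
Genotype difference of the timing score, deletion minus control (vertical axis, without a unit), of each gene for replicate number 1 (circles) and number 2 (squares), with dashed lines at the medians of all measured genes, 0.09 and 0.18. Tal2, Zfp462 and Ctnnal1 lie above the line of each number, Ctnnal1 at 0.58 and 0.61. Klf4, Rad23b, Actl7b and Actl7a lie below the line of each number.

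Contrasts between genes of the same profile are free of a shift of the whole profile. The lower flank averaged 2.03 in control 1, 2.38 in control 2, 2.21 in deletion 1 and 2.79 in deletion 2. The upper flank averaged 2.50, 2.87, 2.51 and 3.04 in the same order. The upper flank was thus earlier than the lower in every profile, by 0.46 and 0.49 with the enhancer and by 0.30 and 0.25 without it. This order depends on Tal2, the latest gene of the set, which lies in another early domain. Rad23b scored above the upper mean in every profile, and Zfp462 did so in deletion 1. No contrast of the flanks was run without Tal2. With Tal2 included, both deletion profiles had a smaller gap than both controls. The difference was -0.21 (exact two-sided permutation p = 0.333, the smallest that 2 profiles against 2 can give). This separation of the genotypes, like the order of the flanks, depends on Tal2. The direction of the difference rests on counting each gene once, with Actl7b and Actl7a counted separately though they share a bin. Taken over the distinct bins of each flank, which gives most weight to Zfp462, Tmem245 and Ctnnal1, the difference was 0.06 (exact two-sided permutation p = 0.667).

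Klf4 was earlier than the mean of its lower flank, Tal2 included, in control 1 and 2, by 0.21 and 0.35. In deletion 1 it was later than that mean, with a contrast of -0.44, and in deletion 2 earlier, with 0.10. The genotypes did not overlap, and the difference was -0.45, with -0.65 in number 1 and -0.26 in number 2 (exact two-sided permutation p = 0.333, the smallest possible here). It was -0.18 without deletion 1 and -0.72 without deletion 2. Klf4 was later than the mean of its upper flank in all 4 profiles, with contrasts of -0.26 and -0.14 for control 1 and 2 and of -0.74 and -0.15 for deletion 1 and 2. Here the genotypes overlapped, and the difference of -0.24 (exact two-sided permutation p = 0.667) turned to 0.05 without deletion 1.

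Against its nearest neighbour, Klf4 stood apart in deletion 1. The score of Klf4 minus that of Rad23b was -0.54 in control 1, -0.46 in control 2, -1.05 in deletion 1 and -0.45 in deletion 2. Within the upper flank, the score of Ctnnal1 minus that of Actl7b was -0.25 in control 1, 0.31 in control 2, 0.66 in deletion 1 and 0.96 in deletion 2. This pair was picked with its values in view, so its lack of overlap is a description. The differences of the genes across the stretch thus had opposite signs, in both numbers.

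**Figure D4:**
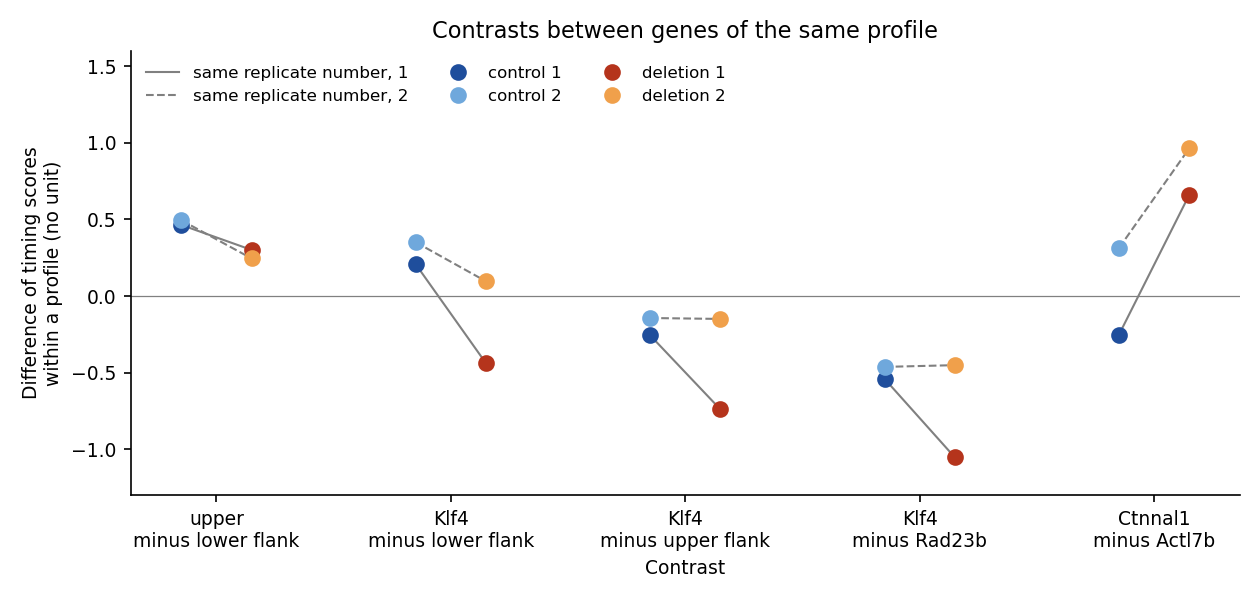
Differences of timing scores between genes within a profile (vertical axis, no unit), with 1 point per profile and lines that join control and deletion of the same replicate number. The gap between upper and lower flank, Tal2 included, is smaller in both deletion profiles, at 0.30 and 0.25, than in both controls. Klf4 minus Rad23b stands apart in deletion 1 alone, at -1.05.

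Going up, the genotype difference fell below 0 close to Klf4 and stayed below it to at least 300 kb above the gene. In number 1 it had also changed sign before that, with 0.08 at 45 kb below the first bin of Klf4. At the last bin of Rad23b, 135 kb below the first bin of Klf4, the deletion profile differed by -0.06 in number 1 and by 0.28 in number 2. At 25 kb below Klf4 it differed by -0.14 and 0.50, and in the first bin of the gene by -0.44 and 0.21. At 25 kb above the last bin of Klf4 the differences were -0.93 and -0.39, and at 100 kb above it -1.57 and -1.33. They were -1.34 and -1.60 at 200 kb above it, and -1.58 and -1.37 at 300 kb. The mean score of the whole stretch from Klf4 to Actl7b differed by -0.85 in number 1 and -0.64 in number 2, though the genotypes overlapped. The unbroken stretch of bins in which deletion lay below control, followed down from 100 kb above Klf4, began at 55490000 in number 1, 37.1 kb before the lower end of Klf4, and at 55540000 in number 2, just above the gene. Klf4 thus lay on the slope of the difference in both numbers, past its zero in number 1 and before it in number 2. The places at 25, 100, 200 and 300 kb were chosen after the profile was seen.

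The distance from Klf4 to late-replicating DNA was shorter without the enhancer, with no overlap between the genotypes. From its upper end to the first score below 0 the distance was 168 and 258 kb in control 1 and 2, and 87.5 and 143 kb in deletion 1 and 2. The deletion distance minus the control distance was -80 kb in number 1 and -115 kb in number 2. The distances averaged 213 ± 63.6 kb with the enhancer and 115 ± 38.9 kb without it (SD, n = 2 each; exact two-sided permutation p = 0.333, the smallest possible here). This distance was chosen after the profiles were seen. With profiles centred on their medians the control distances were 223 and 293 kb and the deletion distances 128 and 158 kb. At the other end of the stretch, Actl7b lay 215 and 250 kb above the last score below 0 in the controls, and 175 and 255 kb above it in the deletion profiles, where the genotypes overlapped.

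Between Rad23b and Klf4, 3 adjacent bins from 55465000 to 55479999 had scores in both controls and none in either deletion profile. They start 72.8 kb above Rad23b and end 47.1 kb below Klf4. On either side of them the scores ran on with little change, from 2.35 to 2.30 in deletion 1 and from 3.46 to 3.42 in deletion 2, and from 2.31 to 2.21 and from 2.82 to 2.78 in control 1 and 2. Of the 31301 positions on the chromosome, these 3 were the only ones scored in the control profiles alone. Whether these bins are the deleted enhancer was not tested.

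**Figure D5:**
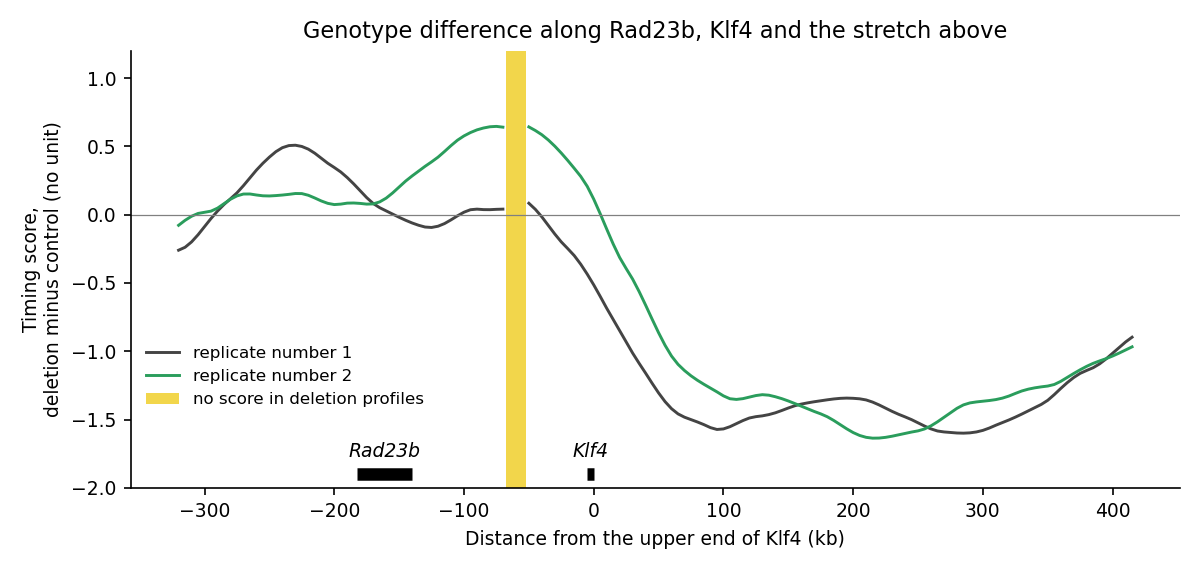
Genotype difference of the timing score, deletion minus control (vertical axis, without a unit), against distance from the upper end of Klf4 in kb, for the number 1 and number 2 profiles, with Rad23b and Klf4 drawn below and the bins without a deletion score in yellow. Going up, number 1 falls below 0 for the last time before Klf4 is reached and number 2 just above it, and at 100 kb above the gene they stand at -1.57 and -1.33.

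Around these genes, 11 other protein-coding genes lay within 2 Mb of Klf4, 4 on the lower side and 7 on the upper. All 4 lower genes were higher in deletion cells within both numbers, with a median difference of 0.53, and their genotypes overlapped. Of all measured genes 43.7% were higher within both numbers as deposited and 30.2% after median centring. They lie beside Tal2 in its domain, and Tmem38b, a gene for an intracellular ion channel, had the highest difference of the side at 0.64, with 0.21 in number 1 and 1.07 in number 2. The lowest difference was that of Fsd1l, at 0.40. On the upper side 5 of 7 were higher within both numbers and 0 lower, with a median difference of 0.19. Abitram, which lies beside Ctnnal1, had the highest difference at 0.50, with 0.45 and 0.55 within the numbers. Frrs1l, the next gene outside Tmem245, had the lowest at -0.05, with -0.16 and 0.06. Of the 11 genes 1 had both deletion scores above its controls, the tyrosine phosphatase gene Ptpn3, named here after its values were seen, where 15.1% of all genes did. By limma 0 of the 11 passed the test, with 0 at an unadjusted p under 0.05.

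Of the measured genes more than 2 Mb from Klf4, the 3 with scores closest to its own in all 4 profiles were Zfp987, Zfp988 and Zfp982, named as zinc finger protein genes. Their Euclidean distances from Klf4 over the 4 profiles were 0.28, 0.31 and 0.35. The controls gave Zfp987 2.04 and 2.61, and the deletion profiles 1.93 and 2.87. Its differences were -0.11 in number 1 and 0.25 in number 2, against -0.47 and 0.16 for Klf4. These genes were chosen on the same 4 scores, so the likeness of their differences is no separate result.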

How the data were processed

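BrdU was given for 2 h, per the labels' protocols, and an antibody pulled down labelled DNA of 40000 sorted cells per S-phase fraction for sequencing. The authors deposited a timing score for each profile, with interquartile ranges set equal per the file name (4.60 in each). Bowtie2, SAMtools, bedtools and mm10 are named in the submitters' processing notes, without versions. The smoothing was not given in the sources used.

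Of 31301 positions, 30659 had a score in every profile. A position was taken as the start of its 5 kb bin, and a gene was scored by averaging the bins that overlap it. Gene coordinates came from RefSeq on GRCm38.p6, the same build as mm10. Of 1328 protein-coding genes 1301 were measured. Genotypes were compared with limma 3.58.1 in R 4.3.3 (lmFit and eBayes, two-sided, Benjamini-Hochberg over all genes, threshold 0.05), checked on simulated data, and single values by exact permutation with scipy 1.17.1. SEs and intervals rest on limma's moderated spread. The named genes were the 8, then per side the nearest gene outside them and those with the highest and lowest difference within 2 Mb, and the 3 genes most like Klf4. The genes, lists and tests were chosen with earlier results of these data known. Alternatives were 3 normalizations, bins read by their end, the midpoint bin, genes extended by 25 kb, trend and robust options, all gene types, other flank definitions, the replicate block and each profile left out.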

Additional observations from a re-analysis of the deposited data

How the results depend on the processing

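Across 13 results and 170 recomputed values, 156 kept their direction and their side of the threshold. Many of the 170 could not change direction. The replicate block alone returns the same differences by design. So do the trend and robust options and the test of all gene types for single genes. Median centring cancels in contrasts within a profile, and scaling by the interquartile range nearly repeats it, as the ranges were already equal. Actl7b and Actl7a share a bin yet count separately. The differences of Tal2, Zfp462 and Ctnnal1, the contrast of Klf4 with its lower flank and the distance from Klf4 to the first score below 0 kept their direction in every alternative run. With single profiles left out these ranged from 0.03 to 0.98, from 0.13 to 0.43, from 0.18 to 1.01, from -0.72 to -0.18 and from -142.5 to -52.5 kb in the same order. The Rad23b difference turned negative after quantile normalization (-0.068), after median centring, alone or with the replicate block, and after scaling every profile by its median and interquartile range (-0.017 in all of these), and ranged from -0.17 to 0.35 with single profiles left out. That of Tmem245 was -0.031 after quantile normalization. With single profiles left out, the Klf4 difference ranged from -0.72 to 0.40, that of Actl7b and Actl7a from -0.45 to 0.077, and the contrast of Klf4 with its upper flank from -0.54 to 0.051. The gap between the flanks turned to 0.062 over distinct bins, which weights genes by length. No alternative left Tal2 out of the lower flank, either for this gap or for the contrast of Klf4 with that flank. The number of genes called by limma ranged from 0 to 4 with single profiles left out, 4 without deletion replicate 1, and none of the 8 genes was among them. It was 0 in the other 10 alternatives.

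Profiles share only a number, and the labels do not call them pairs. Deviations from the genotype means correlated at 0.33 between profiles of the same number, across genes, which are not replicates. With the replicate block limma called 0 of 1301 genes, with 165 at an unadjusted p under 0.05, among them 2 of the 8, Ctnnal1 (0.0083) and Tal2 (0.027), and the adjusted p was 0.29 for Ctnnal1, 0.37 for Tal2 and 0.77 for Klf4 at unchanged differences of 0.59, 0.51 and -0.16. Members under that unadjusted p also numbered 2 without deletion replicate 1, 1 without control replicate 2, 1 after median centring with the block, and 0 in the other alternatives fitted. With 2 profiles per genotype and unknown read depth, small differences cannot be told from the spread.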

Other observations

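The stretches without protein-coding genes on either side of the domain that holds Zfp462, Rad23b and Klf4 were set side by side after the profiles were seen. The stretch from Tmem38b to Zfp462 spans 1082 kb and that from Klf4 to Actl7b 1208 kb. The lowest score of the lower stretch was -2.40 in control 1, -1.41 in control 2, -2.48 in deletion 1 and -1.13 in deletion 2. That of the upper stretch was -3.35, -2.06, -4.05 and -2.88 in the same order. The upper stretch was later in every profile, with a gap of -0.95 and -0.66 for the controls and of -1.57 and -1.74 for the deletion profiles. The genotypes did not overlap in this gap within a profile (exact two-sided permutation p = 0.333, the smallest that 2 profiles against 2 can give), while they overlapped in the lowest score of each stretch. Within the numbers the lowest score of the upper stretch differed by -0.71 and -0.81, deletion minus control, and that of the lower stretch by -0.09 and 0.27. Zfp462 lay 249 and 299 kb above the last score below 0 of the lower stretch in the controls, and 244 and 379 kb above it in the deletion profiles, a distance that was shorter in number 1 and longer in number 2.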
